A study of Oryza sativa with 20 samples.

Results

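The 33 miRNA tags described here had a level in the rice leaf blade that differed at least 2-fold between the earliest and the latest stage sampled, while their level in the neighbouring lamina joint at those stages stayed within 2-fold. They were chosen by measured values: the mean CPM (counts scaled to a common library size) at S1 and S5 in each tissue, with 5 CPM added to every mean before the ratio was taken. The rule was applied to the 287 tags with a mean of at least 10 CPM over all 20 libraries, out of 484 tags with any count and 685 listed. In the blade, 19 members were higher at S5 (ratio of 2 or more) and 14 were lower (ratio of 0.5 or less).

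The libraries hold small RNA of untreated rice (Oryza sativa) seedlings raised in water with a light and a dark period each day, of no stated cultivar. From the earliest complete leaf, blade and lamina joint were cut apart at stages called S1 to S5, and the labels do not tie these to the collection days. There were 10 groups, 5 stages in each tissue, with 2 libraries per group. Whether the replicates are separate plants is not stated, so a p-value here speaks of library-to-library spread, which may be technical.

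In plants, a microRNA is cut from a hairpin precursor, loaded into an Argonaute protein and guides it to messenger RNAs with near-complete pairing, which are then cleaved or kept from translation. Many plant miRNAs target transcription factors, and in leaves they are known for setting polarity, growth and the passage from dividing to differentiated tissue. The blade is the flat, light-capturing part of the grass leaf. The lamina joint is the hinge between blade and sheath, and its bending sets the leaf angle. The files list entries as numbered tags and do not pair them with miRNA names or sequences, so no family, target or sequence can be attached to a member, and tissue identity could not be checked against markers.

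Depth ran from 194799 to 1169330 counts per library (median 499884), and the members together held between 2867 and 18393 counts per library. Of the members, 5 had a mean of at least 1000 CPM, 8 lay between 100 and 1000 CPM and 20 lay below 100 CPM. Members below 100 CPM rested on few counts, with a median over libraries between 3 and 20 counts per tag. The median of the mean CPM was 33.4 among the 19 higher members and 69.8 among the 14 lower ones, against 112 over the 287 tags. Within replicate pairs the median fold, with 5 CPM added to each value, was 1.38 for members and 1.38 for all 287 tags. The added 5 CPM lowers the folds of tags at low levels most, so these values do not show that members were as reproducible as other tags. The lamina joint S1 replicates stood apart from each other, with a Spearman correlation of 0.851 across tags against 0.896 to 0.956 in the other 9 groups. Leaving out the first lamina joint S1 library gave 41 members, of which 27 were among the 33. Leaving out the second gave 33 members, of which 23 were among the 33.

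The members' share of all counts shifted with stage in both tissues. The 14 lower members held 1.47% ± 0.254 (SD, n = 2) of blade counts at S1, 1.84% ± 0.533 at S2, 1.58% ± 0.109 at S3, 0.747% ± 0.106 at S4 and 0.365% ± 4.82e-05 at S5. The 19 higher members held 0.721% ± 0.0750 of blade counts at S1 and 1.26% ± 0.0801 at S5. In the lamina joint the share of the lower members was 1.43% ± 0.00984 at S1 and 0.505% ± 0.0181 at S5. In both tissues this sum is mostly 1 tag. The most abundant lower member, tag_029, held 1.22% ± 0.0120 of lamina joint counts at S1 and 0.407% ± 0.0274 at S5. In the blade it held 1.13% ± 0.251 at S1 and 0.309% ± 0.00556 at S5. The other 13 together held 0.205% ± 0.00218 and 0.0982% ± 0.00927 in the lamina joint, and 0.339% ± 0.00285 and 0.0562% ± 0.00551 in the blade. All these shares are of raw counts, without TMM factors. At S5 the largest tag of each library took 38.3% to 41.1% of its counts, against 20.3% to 28.8% at S1, and the TMM factors of the blade S5 libraries, 0.622 and 0.621, were the lowest of the 20.

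Membership depended on the scaling. With TMM the median S5 to S1 ratio over the 287 tags was 0.966 in the blade and 1.07 in the lamina joint. With total counts, over the tags at or above 10 CPM on that scale, it was 0.575 and 0.712. All 19 higher members kept a blade ratio above 1 and all 14 lower members one below 1 under DESeq2 size factors, total counts and upper quartile factors. The ratio of 2 was reached by 6 of the 19 higher members under total counts and by 19 under DESeq2 size factors and upper quartile factors. The ratio of 0.5 was reached by 14 of the 14 lower members under total counts, by 12 under DESeq2 size factors and by 10 under upper quartile factors. Membership itself held for 29 of the 33 tags under DESeq2 size factors, for 24 under upper quartile factors and for 15 under total counts. The 4 tags that stayed members under these 3 scalings and without each of the 8 libraries of S1 and S5 in turn were all lower in blade S5: tag_024, tag_137, tag_358 and tag_491.

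**Figure D1:**
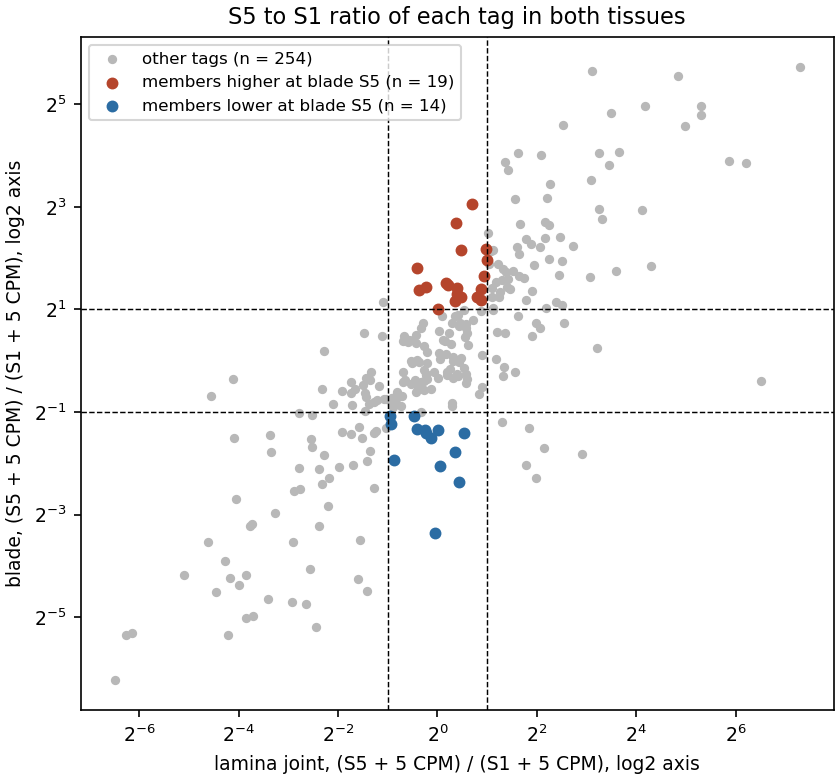
Ratio of S5 to S1 mean CPM (5 CPM added to each) for the 287 tags, lamina joint on the horizontal and blade on the vertical log2 axis. Dashed lines mark 0.5 and 2; the 19 higher members (red) and 14 lower members (blue) lie between the vertical lines by construction.

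The blade ratios of the higher members ran from 2.01 to 8.29 with a median of 2.72, and their lamina joint ratios from 0.749 to 2.00 with a median of 1.31. The blade ratios of the lower members ran from 0.0971 to 0.475 with a median of 0.375, and their lamina joint ratios from 0.518 to 1.46 with a median of 0.882. These values chose the members and are given with no test. Just inside the blade limit of 2 lay tag_140 at 2.01, and just outside it a tag at 1.98. Just inside the blade limit of 0.5 lay tag_029 at 0.475, and just outside it a tag at 0.503. On the lamina joint side, tag_496 lay inside the limit of 2 at 1.996, and the nearest tag beyond it that was also 2-fold higher in the blade had 2.03. The member nearest to the lamina joint limit of 0.5 was again tag_029 at 0.518, against 0.490 for the nearest tag beyond it that was also lower in the blade. Both blade S5 libraries lay above both S1 libraries for 18 of the 19 higher members, and below them for 13 of the 14 lower members. Over the 287 tags the shares were 39.0% above and 39.4% below, and since the rule selected on these libraries nothing is read from the members' counts.

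**Figure D2:**
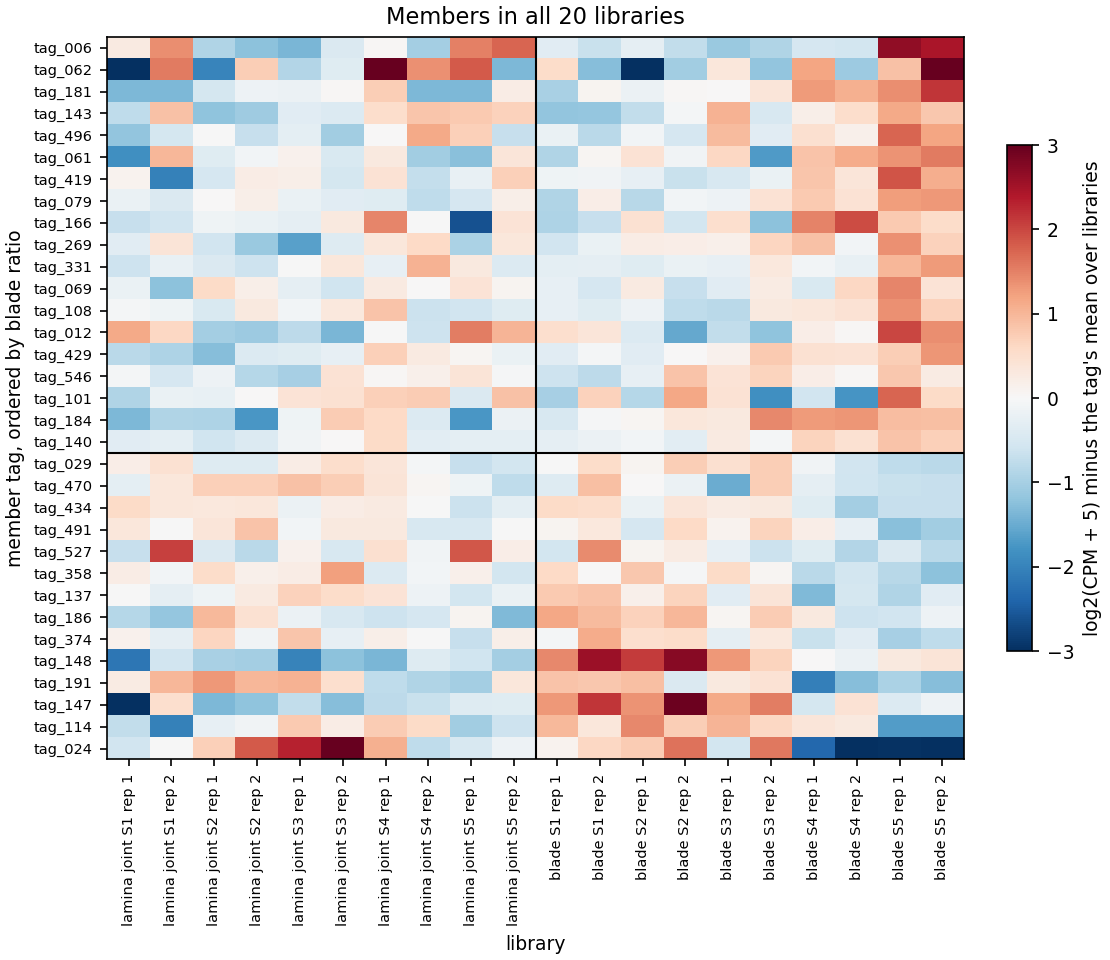
Level of the 33 members (rows, ordered by blade ratio) in the 20 libraries (columns), as log2(CPM + 5) minus the row's mean, with colours ending at -3 and 3. The horizontal line divides the 19 higher from the 14 lower members. Among the libraries that reach the ends of the scale are lamina joint and blade libraries of tag_062 and tag_024, and a lamina joint library of tag_147.

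Among the lower members, tag_148 and tag_147 had their highest levels in the blade at S1 and S2. In the blade, tag_148 had 94.0 and 211 CPM at S1, 150 and 236 at S2, 84.6 and 52.9 at S3, 31.5 and 27.3 at S4, and 39.1 and 42.7 at S5. In the lamina joint it stayed between 3.08 and 22.8 CPM in all 10 libraries, from 2 to 10 counts each. The tissues did not overlap for this tag, and its lowest blade library, at 27.3 CPM, was close above the highest lamina joint library.

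The course of tag_147 was much the same. Its blade libraries had 133 and 244 CPM at S1, 138 and 427 at S2, 117 and 159 at S3, 33.9 and 70.3 at S4, and 37.3 and 45.4 at S5. Its lamina joint libraries had 0 and 73.9 CPM at S1 and lay between 17.2 and 38.7 CPM from S2 to S5. The lamina joint S1 pair was thus far apart, and the lamina joint ratio of 1.03 rests on that pair. Across the 10 group means of log2(CPM + 2), the tag most like tag_148 among the 287 was tag_147 (Pearson r = 0.949) and the reverse held as well. This pair was singled out after its values were seen, and the points share libraries. Both are lower members, and the means at S1 and S5 chose them.

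The member with the lowest blade ratio, tag_024, had its highest level in the lamina joint at S3. Its lamina joint libraries had 58.5 and 89.5 CPM at S1, 151 and 332 at S2, 465 and 935 at S3, 193 and 50.8 at S4, and 63.0 and 80.5 at S5. In the blade it had 96.7 and 140 CPM at S1, 156 and 287 at S2, 59.6 and 277 at S3, 13.3 and 5.85 at S4, and 7.11 and 6.88 at S5. The lamina joint ratio of 0.972 between S1 and S5 therefore does not show the S3 mean of 700 ± 333 CPM (SD, n = 2). The tags most like it over the group means were tag_358 (r = 0.954) and tag_374 (r = 0.866), both lower members. This likeness was looked up after the values were seen. The group means include those of S1 and S5, which chose the members, so likeness among lower members is partly built in.

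The most abundant lower members were tag_029 and tag_137. In the blade tag_029 had 8477 and 12454 CPM at S1, 9016 and 14257 at S2, 11905 and 14191 at S3, 7959 and 5712 at S4, and 5031 and 4910 at S5. Its lamina joint libraries had 9788 and 11722 CPM at S1 and 5326 and 5811 at S5. The libraries of S1 and S5 did not overlap in either tissue, and with ratios of 0.475 and 0.518 the tissues differed little. It was a member under none of the other 3 scalings. The tags most like it over the 10 group means were tag_064 (r = 0.861) and tag_153 (r = 0.843), neither of them a member.

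The blade libraries of tag_137 had 1035 and 1087 CPM at S1, 665 and 954 at S2, 467 and 783 at S3, 235 and 414 at S4, and 317 and 473 at S5. Its lamina joint means were 540 ± 65.6 CPM (SD, n = 2) at S1, 916 ± 61.8 at S3 and 461 ± 81.8 at S5. The blade was therefore above the lamina joint at S1, and its S5 libraries overlapped those of the lamina joint.

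Among the higher members, tag_069 and tag_062 were the most abundant. In the blade tag_069 had 3074 and 2571 CPM at S1, 4391 and 2240 at S2, 2877 and 4310 at S3, 2667 and 5621 at S4, and 10085 and 4879 at S5. Its lamina joint libraries had 3186 and 1548 CPM at S1, 5397 and 4109 at S2, and 4867 and 3865 at S5. The lower of its blade S5 libraries was close to the higher lamina joint S5 library. The tags most like it over the group means, tag_106 (r = 0.908) and tag_187 (r = 0.872), were not members and had lamina joint ratios of 3.43 and 6.59.

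The replicates of tag_062 were far apart in almost every group. Its lamina joint libraries had 47.7 and 1668 CPM at S1, 139 and 940 at S2, 304 and 437 at S3, 9325 and 1467 at S4, and 2008 and 219 at S5. In the blade it had 831 and 228 CPM at S1, 51.4 and 271 at S2, 708 and 243 at S3, 1287 and 260 at S4, and 1037 and 5816 at S5. Its median fold between replicates over the 10 groups (5 CPM added to each value) was 5.24, rank 1 of the 287 tags. Its blade ratio of 6.42 and its lamina joint ratio of 1.30 thus both rest on widely spread pairs.

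The largest blade ratio, 8.29, belonged to tag_006, which is named here after its values were seen. Its blade libraries had 117 and 92.7 CPM at S1, 123 and 87.8 at S2, 67.3 and 78.5 at S3, 104 and 101 at S4, and 971 and 845 at S5. The blade was thus level through S4 and high at S5 alone. Its lamina joint libraries had 182 and 401 CPM at S1, between 55.0 and 155 CPM from S2 to S4, and 441 and 515 CPM at S5.

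**Figure D3:**
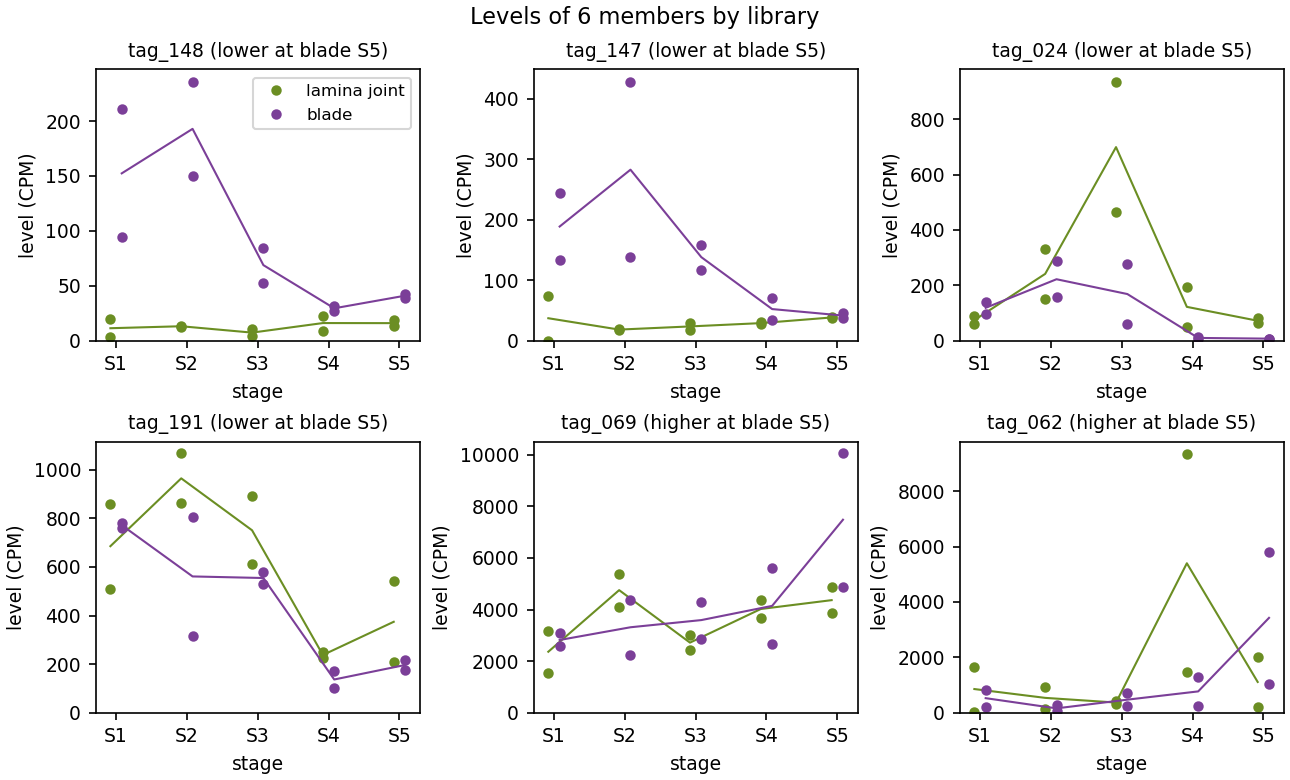
Level in CPM (vertical, linear from 0) by stage for 6 members, with a point for each library and lines through the means of 2 libraries; lamina joint in green, blade in purple. The blade falls of tag_148 and tag_147, the lamina joint peak of tag_024 at S3 and the wide replicate pairs of tag_062 can be seen.

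The stages between S1 and S5 were not used by the ratios, so tests were made on the 12 libraries of S2, S3 and S4. These libraries did enter the minimum mean of 10 CPM, which was taken over all 20; all 33 members also reach 10 CPM over the 8 libraries of S1 and S5. In the blade from S2 to S4, the fitted change was negative for 14 of the 14 lower members (13 of 14 under DESeq2 size factors and upper quartile factors). It was positive for 16 of the 19 higher members (12 of 19 under total counts). Over all 277 tags tested, 51.3% had a positive change. That background includes tags that rose, fell or stayed level in the blade between S1 and S5, so it does not show a trait particular to the members. The median change on the log2 scale was -1.10 among lower members, 0.87 among higher members and 0.06 over all tested tags. All 33 members passed the filter on low counts. Total counts moved the median of all tested tags by -0.49 in the blade and by -0.49 in the lamina joint, and upper quartile factors moved it by 0.20 and -0.20. Of the tags called in the blade, 41.5% were called higher with TMM, 27.9% with total counts and 53.5% with upper quartile factors.

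In edgeR's quasi-likelihood test with Benjamini-Hochberg adjustment over the 277 tags, 5 of the 14 lower members fell in the blade between S2 and S4, against 13.7% of all tested tags called lower. None of the 19 higher members was called in edgeR, against 9.75% of all tested tags called higher. In edgeR 4 of the 19 had an unadjusted p under 0.05, beside 35.7% of all tested tags in either direction. DESeq2 and limma-voom called 0 of the 19 higher members each. Some were called higher in edgeR under alternatives: tag_079 with DESeq2 size factors, tag_079 and tag_166 with upper quartile factors, and tag_062 and tag_166 with no filter on low counts. Under these 3 the lower members called numbered 4, without tag_137. Without either blade S3 library, tag_166 was called beside the 5 lower members. Both tag_079 and tag_166 are named for these calls, with their values known. Both S4 libraries lay below both S2 libraries for 13 of the 14 lower members, against 32.5% of all tested tags. Both S4 libraries lay above both S2 libraries for 12 of the 19 higher members, against 31.4% of all tested tags. Mean blade CPM was lower at both steps, S2 to S3 and S3 to S4, for 10 of the 14 lower members, against 24.5% of all tested tags. It was higher at both steps for 9 of the 19 higher members, against 28.9%. The backgrounds of these calls and shares include tags that rose, fell or stayed level in the blade between S1 and S5. No trait particular to the members is read from them. Tags lower at S5 in both tissues are not members. Of these, named after their values were seen, tag_111 was called lower as well (-4.43, edgeR) and tag_008 was not (-0.94). The count of 5 was 3 without either blade S2 library and 2 without the first blade S4 library.

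The 5 lower members that fell were tag_148, tag_024, tag_147, tag_191 and tag_137, of which tag_147 and tag_191 were picked for naming with their values known. The change of tag_148 was -2.69 ± 0.53 (log2, SE; edgeR adjusted p = 0.00191), and it stayed called under all 22 alternatives. The change of tag_024 was -4.42 ± 0.89 (edgeR adjusted p = 0.00214), from 148 counts at S2 to 14 at S4, and it too stayed called under all 22. Its ratio of summed, scaled counts was 0.0521 (exact 95% binomial interval 0.0278 to 0.0902, counting error only). The change of tag_147 was -2.44 ± 0.56 (edgeR adjusted p = 0.00488), and it was not called without the second blade S2 library, without the first blade S4 library or with all 20 libraries in the fit (adjusted p = 0.102, 0.0767 and 0.0887).

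A change of nearly the same size was called in both tissues for tag_191. In the blade it had 807 and 315 CPM at S2 and 101 and 174 at S4, a change of -2.04 ± 0.49 (log2, SE; edgeR adjusted p = 0.00607). In the lamina joint it had 1068 and 861 CPM at S2 and 250 and 226 at S4, a change of -2.02 ± 0.49 (edgeR adjusted p = 0.00402). The blade call was lost without the first blade S2 library or the first blade S4 library (adjusted p = 0.137 and 0.0914). The change of tag_137 in the blade was -1.32 ± 0.45 (edgeR adjusted p = 0.0445), a call lost under 9 of the 22 alternatives with adjusted p up to 0.307. Its lamina joint change was 0.08 ± 0.44, with an edgeR adjusted p of 0.890.

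The remaining most abundant members did not pass the test in the blade. The S2 to S4 change was 0.32 ± 0.45 for tag_069 (log2, SE; edgeR adjusted p = 0.673), 2.30 ± 1.05 for tag_062 (adjusted p = 0.131) and -0.77 ± 0.36 for tag_029 (adjusted p = 0.140). The change of tag_069 had the other sign under total counts, at -0.06. Without a filter on low counts tag_062 was called (adjusted p = 0.000106), and with total counts tag_029 was called (-1.18, adjusted p = 0.0149).

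**Figure D4:**
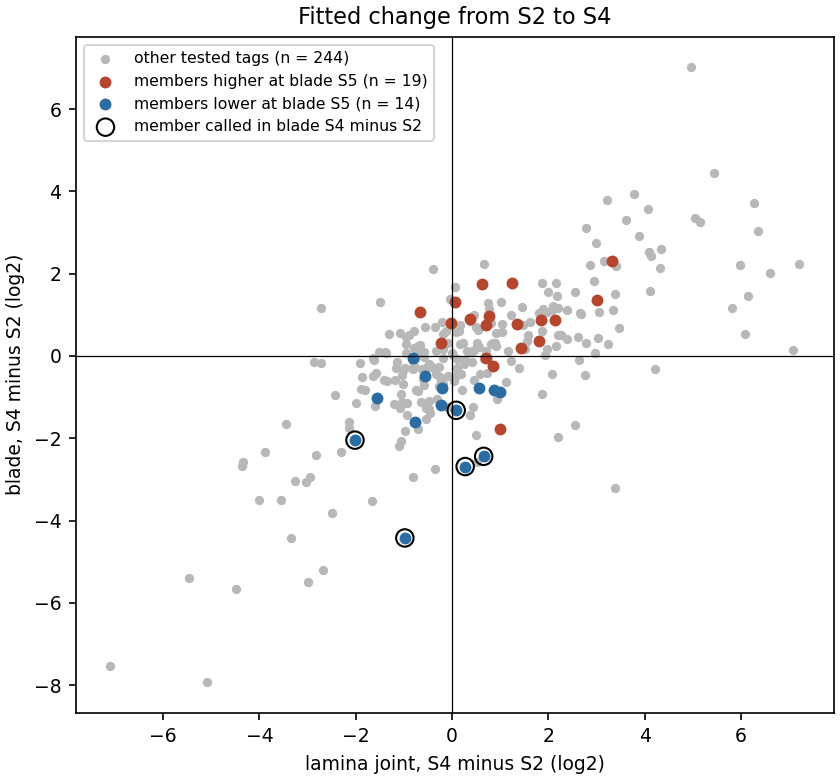
Fitted log2 change from S2 to S4 in the lamina joint (horizontal) and the blade (vertical) for the 277 tested tags, from the 12 libraries of S2 to S4. Higher members are red, lower members blue, and black circles mark the 5 members called in the blade; all 14 lower members lie below 0 on the vertical axis with TMM (13 under DESeq2 size factors and upper quartile factors).

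The lamina joint level of the members between S1 and S5 is given next, as a description. The highest of the 5 lamina joint stage means was at least 2-fold the lowest (5 CPM added) for 21 of the 33 members, against 81.2% of the 287 tags, a background that includes tags with a lamina joint ratio of S5 to S1 of 2 or more, or 0.5 or less, which the rule keeps out of the members. The highest stage mean lay at S2, S3 or S4 for 24 members, against 58.5% of the 287 tags, and the lowest for 15 members, against 36.2%. The background of these shares, and of the next, includes the same kept-out tags, so nothing is read from the comparison. A middle stage was at least 2-fold away from S1 for 16 members, against 64.1% of the 287 tags; it was above S1 in 11 and below it in 6, with 1 member in both groups. The members tag_012 and tag_006, named after their values were seen, had lower means at S2 to S4 than at S1 and S5 in the lamina joint. The first had lamina joint means of 1819 ± 449 CPM (SD, n = 2) at S1, 463 ± 12.4 at S2 and 2388 ± 603 at S5. Its blade means were 1308 ± 93.4, 530 ± 281 and 3222 ± 974 CPM at the same stages, so S2 was the lower in both tissues.

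Between S2 and S4, 3 higher members rose in the lamina joint, against 27.1% of all tested tags called higher, and 2 lower members fell, against 15.5% called lower (edgeR). The fitted lamina joint change was positive for 16 of the 19 higher members (14 under DESeq2 size factors and upper quartile factors, 13 under total counts), against 54.2% of all tested tags. Among the lower members it was negative for 8 of 14 (10 under total counts). Of all tags called in the lamina joint, 63.6% were called higher with TMM and 47.4% with total counts. The 3 that rose were tag_143, tag_062 and tag_184. Under total counts 2 higher members were called higher and 1 higher member, tag_079, was called lower in the lamina joint. With all 20 libraries in the fit tag_429, named after its values were seen, was called and tag_062 was not. The lamina joint libraries of tag_143 had 13.4 and 15.3 CPM at S2 and 56.8 and 71.1 at S4, a change of 2.13 ± 0.60 (log2, SE; edgeR adjusted p = 0.00926), which was not called without either lamina joint S2 library (adjusted p = 0.0551 and 0.0527). In the blade this tag had 20.6 and 35.9 CPM at S2 and 43.6 and 56.6 at S4. The change of tag_062 was 3.32 ± 1.07 (edgeR adjusted p = 0.0202) and came down to 1.44 (adjusted p = 0.342) without the first lamina joint S4 library; it was not called without the first lamina joint S2 library (adjusted p = 0.137), with the replicate block (3.13, adjusted p = 0.0545) or with all 20 libraries in the fit (adjusted p = 0.113).

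The third, tag_184, was named after its values were seen. It went from 2 to 12 counts, a ratio of 9.41 (exact 95% binomial interval 2.09 to 86.5, counting error only; edgeR adjusted p = 0.0380), and was not called without the second lamina joint S2 or the first lamina joint S4 library (adjusted p = 0.260 and 0.293), nor under total counts or DESeq2 (adjusted p = 0.0703 and 0.0531). The lower members that fell were tag_191, given above, and tag_186, which had 51.6 and 34.4 CPM at S2 and 13.6 and 15.2 at S4 in the lamina joint. Its change was -1.55 ± 0.59 (edgeR adjusted p = 0.0444), a call lost under 14 of the 22 alternatives. The count of 5 members called in the lamina joint was 2 without the first lamina joint S2 library, 3 without the second, 3 without the first lamina joint S4 library, 3 with DESeq2 and 3 with the replicate number as a block.

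Whether the S2 to S4 change differed between blade and lamina joint was tested directly, since a pass in one tissue and not in the other shows no difference. No member passed in edgeR, against 0% of all tested tags called higher and 3.97% called lower in the blade change minus the lamina joint change. At an unadjusted p under 0.05 there were 8 members, 7 of them lower members with the more negative change in the blade, beside 20.6% of all tested tags in either direction. DESeq2 called 3 members and limma-voom 0. The fit without a filter on low counts called 3 as well, and in both cases these were tag_148, tag_147 and tag_024. The share of all tags called in these settings is not given here, so the counts are not read against a background. In edgeR the difference was -2.96 ± 0.83 for tag_148 (log2, SE; adjusted p = 0.0516), -3.09 ± 0.85 for tag_147 (adjusted p = 0.0516) and -3.44 ± 1.12 for tag_024 (adjusted p = 0.0815). Of all calls on this difference, 0% were higher with TMM and between 11.8% and 18.2% with the other scaling factors; upper quartile factors moved the median of all tested tags by 0.39. The count of 0 became 3 without either blade S3 library and 1 without either lamina joint S4 library or the first blade S2 library.

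The level of the members in the blade was then set against that in the lamina joint at the middle stages. Averaged over S2 to S4, 2 lower members and 1 higher member were called higher in the blade, against 11.2% of all tested tags, and 1 lower member was called lower, against 8.30%. The blade excess was 2.62 ± 0.34 for tag_148 (log2, SE; edgeR adjusted p = 7.85e-05) and 2.44 ± 0.34 for tag_147 (adjusted p = 0.000125). For tag_184, named after its values were seen, it was 1.65 ± 0.51 (adjusted p = 0.0326). The call for tag_184 was lost without the second lamina joint S2, first lamina joint S3 or second lamina joint S4 library. It was also lost without either blade S2 library, the second blade S3 library or either blade S4 library. The lower tag in the blade was tag_024, at -1.92 ± 0.45 (adjusted p = 0.00596). The calls for tag_148, tag_147 and tag_024 held under all 22 alternatives, and with no filter on low counts tag_062 was called lower as well. Of all tags called, 57.4% were higher in the blade with TMM and 70.7% with upper quartile factors.

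At S2 by itself, 3 lower members were called higher in the blade, against 11.2% of all tested tags, and 0 members were called lower in edgeR, DESeq2 and limma-voom, against 3.97%, with 0 members lower at an unadjusted p under 0.05. With no filter on low counts edgeR called tag_062 lower and tag_184 higher at this stage, and not tag_114. The excess was 3.85 ± 0.57 for tag_148 (log2, SE; edgeR adjusted p = 0.000306) and 3.92 ± 0.62 for tag_147 (adjusted p = 0.000420). The third was tag_114, named after its values were seen, with 654 and 399 CPM in blade S2 and 201 and 221 in lamina joint S2. Its excess was 1.33 ± 0.41 (adjusted p = 0.0413), and its call was lost under 13 of the 22 alternatives (adjusted p up to 0.292).

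At S3, tag_148 and tag_147 were the 2 members called higher in the blade, against 3.61% of all tested tags, at 3.12 ± 0.60 (log2, SE; edgeR adjusted p = 0.00653) and 2.57 ± 0.59 (adjusted p = 0.0226). No member was called lower in edgeR, against 0.361% of all tested tags. At an unadjusted p under 0.05 in edgeR there were 4 members, 1 of them at a lower level in the blade. The share of all tested tags at that limit was 21.3% in either direction. DESeq2, and edgeR with no filter on low counts, each called 1 member lower, tag_024, and limma-voom called 0. Without either lamina joint S3 library no member was called at this stage. At S4 neither tag_148 (0.90 ± 0.60, edgeR adjusted p = 0.496) nor tag_147 (0.83 ± 0.60, adjusted p = 0.530) passed. Of all tested tags, 0.361% were called higher and 3.61% lower in the blade at S4, and the 1 member among them was tag_024.

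At S4, tag_024 had 14 counts in the blade and 105 in the lamina joint, a ratio of 0.0831 (exact 95% binomial interval 0.0439 to 0.146, counting error only) and a difference of -3.58 ± 0.87 (log2, SE; edgeR adjusted p = 0.0456). This call was lost under 7 of the 22 alternatives, among them DESeq2 size factors (adjusted p = 0.0771), limma-voom (adjusted p = 0.117) and leaving out the first lamina joint S4 library (-2.31, adjusted p = 0.265) or either blade S4 library (adjusted p = 0.155 and 0.211). Of all tags called at S4, 9.09% were higher in the blade with TMM and 42.9% with upper quartile factors, which moved the median of all tested tags by 0.43.

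**Figure D5:**
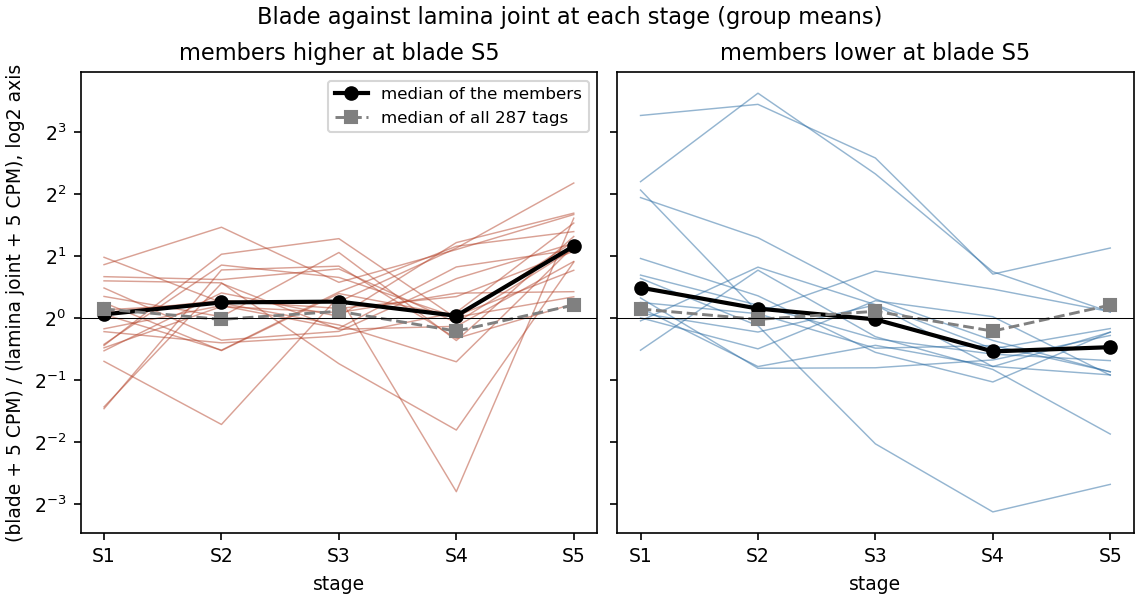
Ratio of blade to lamina joint group mean (5 CPM added, log2 axis) at each stage, with a thin line for each of the 19 higher (left) and 14 lower (right) members; black, their median, and grey, the median of the 287 tags. The median of the higher members is 1.03 at S4 and 2.24 at S5; that of the lower members is 1.41 at S1 and 0.692 at S4.

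The course of blade against lamina joint is given here as a description, since the values at S1 and S5 chose the members. For the lower members the median ratio of blade to lamina joint means was 1.41 at S1, 1.12 at S2, 0.989 at S3, 0.692 at S4 and 0.725 at S5. For the higher members it was 1.05, 1.20, 1.21, 1.03 and 2.24 at the same stages, and over the 287 tags 1.11, 0.989, 1.08, 0.868 and 1.16. At S5 all 19 higher members had the higher mean in the blade, and 11 of the 14 lower members had the lower mean there, while over the 287 tags 60.3% had the higher mean in the blade. The largest blade step between neighbouring stages lay between S4 and S5 for 10 of the 19 higher members, and between S3 and S4 for 9 of the 14 lower members. Over the 287 tags the shares were 32.4% and 35.5%. The S3 to S4 step, which involves no library of S1 or S5, had a lower mean at S4 for 14 of the 14 lower members, with a median ratio of 0.528, and for 166 of the 287 tags, with a median of 0.889. The 287 tags include those that rose or stayed level in the blade between S1 and S5, so no trait particular to the members is read from this.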

How the data were processed

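The authors deposited raw counts of each tag, 1 table per library. Per the submitters' processing notes, CASAVA and the build IRGSP-1.0 were used; aligner, miRNA annotation and the handling of multiply matching reads: not given in the sources used here. Members follow the rule in the opening, on CPM from TMM factors (edgeR 4.0.16, R 4.3.3). The members and the tests were chosen with earlier results of these data known.

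Tests used the 12 libraries of S2 to S4, which the ratios did not use, with the TMM factors of all 20. The quasi-likelihood test of edgeR was fitted with a mean for each of 6 groups (6 residual degrees of freedom), after filterByExpr (minimum count 10, minimum total 15) left 277 tags. Tests were two-sided, with Benjamini-Hochberg adjustment over the 277 tags and a threshold of 0.05; SE was derived from F. The fit was also run on simulated counts, with spreads taken from the same model and changes in blade S4 alone. That setting differs from these data, so it does not vouch for the fit here. Each of 22 alternatives changed 1 choice: scaling, filter, tool (DESeq2 1.42.0, limma 3.58.1 with voom), samples, replicate block or 1 library left out. Tags named were the 2 most abundant members per direction and up to 2 per direction with the smallest p in each test; others are marked as named after their values were seen. All 10 replicate pairs differed by more than sampling noise (chi-square per degree of freedom 37.7 to 247). Figures used matplotlib 3.10.9.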

Additional observations from a re-analysis of the deposited data

How the results depend on the processing

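Depth limits the 20 members under 100 CPM, and with 2 libraries per group single libraries decide many calls. The counts of members called kept within 1.5 times of the values given under all alternatives other than left-out libraries, except as follows; the cause was not tested. A total can stay while its members change: for the blade S2 to S4 change no filter gave 2 higher members and 4 lower ones in place of 0 and 5. Total counts kept the lamina joint total at 5, with 2 higher members called higher, 1 higher member called lower and 2 lower members called lower. For the lamina joint S2 to S4 change (5), DESeq2 and the replicate block gave 3. For the difference between tissues in that change (0), DESeq2 and no filter gave 3. For the tissues at S3 (2), the fit on all 20 libraries gave 1. For the tissues at S4 (1), DESeq2 size factors, TMM on the 12 libraries and limma-voom gave 0 and no filter 3. Upper quartile factors gave 1, called higher in place of lower. The share of all tags called under each alternative, left-out libraries included, is not given here. The members' counts under alternatives, in this section and above, are therefore not read against a background.

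Leaving out single libraries gave 2 to 6 members for the blade S2 to S4 change, 2 to 5 for the lamina joint, 0 to 3 for the difference, 0 to 2 for the tissues at S3 and 0 to 1 at S4. The count averaged over S2 to S4 stayed between 3 and 6, and that at S2 between 2 and 4, over all settings. The number of members stayed between 23 and 44 over the 17 other rules and left-out libraries, although total counts gave 12 higher and 32 lower, and 15 of the 33 in common.

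Of the single-tag changes, tag_069 in the blade reversed to -0.057 under total counts and ran from -0.31 to 0.89 without single libraries. The lamina joint change of tag_137, 0.08, reversed under DESeq2 size factors (-0.0030), total counts (-0.35), upper quartile factors (-0.088) and TMM on the 12 libraries (-0.018), and ran from -0.24 to 0.35 without single libraries. Neither was called in any of these.

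Replicate numbers gave no pairing: deviations of same-numbered libraries correlated between -0.319 and 0.344 over 15 pairs of groups, and 4 of them were over 0.1. With the replicate block the blade S2 to S4 count was 5, the lamina joint count 3 and the count at S2 2.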

Other observations

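Some members owe their place to the 5 CPM added before the ratio. The lamina joint S1 libraries of tag_181 held no count (the limit for a count of 0 is 3 counts), and its lamina joint S5 libraries held 0 and 3 counts, so its lamina joint ratio of 1.97 was near the limit of 2 through the added value. Its blade libraries held 1 and 3 counts at S1 and 16 and 37 at S5. With 1 CPM added in place of 5, 28 of the 33 tags were members, and with 10 CPM, 30 of 33. A minimum mean of 20 CPM kept 23 of them.

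The pair tag_148 and tag_147, whose group means correlated with r = 0.949, had different counts in all 20 libraries, and no member repeated the counts of another tag (0 of 33). Another member with replicates apart was tag_101, whose blade libraries had 6.91 and 33.7 CPM at S1, 8.23 and 47.9 at S2, 26.9 and 1.60 at S3, 10.9 and 1.95 at S4, and 74.7 and 30.3 at S5. Its median fold between replicates over the 10 groups, with 5 CPM added to each value, was 2.27, rank 14 of 287. Its blade means were 20.3 ± 19.0 CPM (SD, n = 2) at S1 and 52.5 ± 31.4 at S5, and it was the 1 higher member whose blade S1 and S5 libraries were not apart.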
